A study of Mus musculus with 8 samples.

Results

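Marginal zone B cells are a sessile population of the spleen that is known for fast antibody responses to polysaccharide antigens, and they are recognised by high levels of CD21, CD1d and CD9. Their development depends on the receptor Notch2. When a ligand of the Delta or Jagged family engages a Notch receptor, a metalloprotease and then the gamma-secretase complex cut it, and the freed intracellular part joins the DNA-binding factor RBPJ in the nucleus and turns on targets such as Hes1 and Dtx1. The 7 genes described here are 2 Notch receptors (Notch2 and Notch1), the nuclear factor Rbpj, the target Hes1, and the surface marker genes Cd1d1, Cr2 and Cd9. They were chosen by gene symbol, among 8251 genes named on the array, because a T-independent response may draw on marginal zone cells. The array held 9 probe sets for these 7 genes alone, and 1 more that was annotated to both Cd1d1 and its close relative Cd1d2.

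Gene expression was measured on 8 Affymetrix mouse arrays, 2 per group, from 4 groups of sorted B cells of F1 mice of the QM strain (known as quasi-monoclonal, with many B cells that bind the hapten NP) and C57BL/6. Each array held pooled cells from 4 to 10 mice, and the submitters describe the replicates as biological. TI day 4 cells were GL7+ B220+ germinal centre B cells sorted 4 days after 30 µg of NP on the polysaccharide Ficoll. TD day 10 cells had the same sort markers and came from mice that had received 50 µg of alum-precipitated NP on chicken gamma-globulin with heat-killed B. pertussis, without earlier priming. TD day 4 cells, again GL7+ B220+, came from mice primed with 50 µg of the alum-precipitated carrier protein and the same bacteria and, after 5 weeks, given 50 µg of NP on the carrier in soluble form. Resting cells were GL7- B220+ and came from unimmunised mice. Their sort took no marker that parts marginal zone from follicular B cells, so they are a mixture of resting B cell types.

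Array medians lay between 77 and 89 intensity units. Values at or below 81, the median of all values, were set to 81 before log2 was taken, so a difference from a group at this floor is a lower bound. A probe set was tested in limma if at least 2 arrays read above the floor, which 7253 did, and was called at an adjusted p under 0.05 over all of them. The B cell marker list summed to between 21589 and 22172 in TI day 4, 19825 and 20668 in TD day 10, 21145 and 23624 in TD day 4, and 27521 and 31482 in resting. Of its genes, Cd22 was called lower in TI day 4 than in resting (limma adjusted p = 0.047), and Cd79b in TD day 10 and TD day 4 (0.016 and 0.032). Of 6 germinal centre genes on the array, Bcl6 and Mki67 were called higher in TI day 4 than in resting, with Gcsam added in TD day 4, and with Gcsam, S1pr2 and Mef2b added in TD day 10. Gcsam was also called lower in TI day 4 than in TD day 10 and in TD day 4 (limma adjusted p = 0.023 and 0.028). The Fas probe set did not read above the floor on any array.

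The stretches upstream of the genes' starts were searched for the core letters that RBPJ is known to bind, TGGGAA, read on either strand, which makes TTCCCA the same match. Of the 7 genes, 5 had an entry in the RefSeq promoter table (build GRCm38.p6), and Hes1 and Cd1d1 had none. The 250 bases before the start are shown for 2 genes that fell in TI day 4 and hold a match (Cr2 and Rbpj), for Cd9, which holds one too, and for Notch2, which holds none. Matches stand in capitals, and each line runs 5′ to 3′ on the gene's strand.
Cr2, chr1:195176720-195176969, minus strand: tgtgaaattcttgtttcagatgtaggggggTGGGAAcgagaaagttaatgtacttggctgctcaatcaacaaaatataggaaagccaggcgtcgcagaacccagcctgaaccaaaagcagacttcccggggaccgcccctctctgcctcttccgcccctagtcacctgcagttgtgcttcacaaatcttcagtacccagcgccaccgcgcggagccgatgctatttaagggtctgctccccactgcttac
Rbpj, chr5:53590096-53590345, plus strand: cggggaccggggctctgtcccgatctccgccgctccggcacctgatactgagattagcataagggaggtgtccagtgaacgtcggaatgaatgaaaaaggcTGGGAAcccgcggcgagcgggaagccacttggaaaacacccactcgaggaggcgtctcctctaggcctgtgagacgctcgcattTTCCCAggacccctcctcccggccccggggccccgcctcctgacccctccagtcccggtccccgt
Cd9, chr6:125494761-125495010, minus strand: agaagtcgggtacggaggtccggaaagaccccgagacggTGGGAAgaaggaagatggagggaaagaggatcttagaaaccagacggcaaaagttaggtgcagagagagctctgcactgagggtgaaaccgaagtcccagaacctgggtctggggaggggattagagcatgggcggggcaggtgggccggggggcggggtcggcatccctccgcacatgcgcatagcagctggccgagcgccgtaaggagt
Notch2, chr3:98013288-98013537, plus strand: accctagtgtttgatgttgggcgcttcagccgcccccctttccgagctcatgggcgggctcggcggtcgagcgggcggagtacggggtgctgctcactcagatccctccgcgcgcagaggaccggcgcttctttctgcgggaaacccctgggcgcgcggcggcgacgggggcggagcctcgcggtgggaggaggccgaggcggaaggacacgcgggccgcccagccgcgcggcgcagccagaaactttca
In Cr2 the match lay 220 to 215 bases before the start, in Cd9 211 to 206 bases, and in Rbpj 149 to 144 bases on the plus strand and 65 to 60 bases on the minus strand. Notch1 held no match. Of all 32851 such windows that RefSeq gave, 21.6% held at least 1 match, so these letters are common. The same letters thus stand before Cr2, which was lower in TI day 4 than in resting, and before Cd9, which was not.

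The receptors come first. Notch2, the receptor that marginal zone B cells require, had the widest fitted fall of the 7 genes in both T-dependent groups. Its brighter probe set read 200 and 159 in TI day 4, 68 and 98 in TD day 10, and 11 and 146 in TD day 4, against 930 and 643 in resting. Both resting arrays stood far above all 6 germinal centre arrays. The fall against resting was 4.34-fold in TI day 4 (log2 difference -2.12 ± 0.34, SE, limma adjusted p = 0.015), at least 8.68-fold in TD day 10 (-3.12 ± 0.34, adjusted p = 0.0044) and at least 7.11-fold in TD day 4 (-2.83 ± 0.34, adjusted p = 0.0064). Both TI arrays read higher than all 4 TD arrays, and this gap did not pass (log2 difference at least 0.86 ± 0.29, SE, against the mean of both TD groups, limma adjusted p = 0.20). The limma adjusted p of the fall in TI day 4 was 0.062 without resting replicate 1, 0.060 without TI day 4 replicate 1 and 0.088 without TI day 4 replicate 2. It was 0.13 with the floor at the 40th percentile.

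The other, dimmer Notch2 probe set did not behave like the first. It read -322 and 20 in TI day 4, 292 and 292 in TD day 10, and 56 and 362 in TD day 4, against 395 and -524 in resting. The resting arrays lay at opposite ends of its range, and no comparison passed (its smallest limma adjusted p was 0.37, TI day 4 against TD day 10). The fall of Notch2 therefore rests on 1 of its 2 probe sets.

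Notch1, the receptor best known for its part in T cell development, gave no difference that passed. Its brighter probe set read 405 and 439 in TI day 4, 444 and 901 in TD day 10, and 495 and 412 in TD day 4, against 883 and 602 in resting. One TD day 10 array read as high as the resting arrays, and the groups overlapped. The log2 difference from resting was -0.79 ± 0.37 in TI day 4 (SE, limma adjusted p = 0.27), -0.21 ± 0.37 in TD day 10 (limma adjusted p = 0.79) and -0.69 ± 0.37 in TD day 4 (limma adjusted p = 0.35). The identifiers of this probe set and of the Cr2 one carry the suffix r, which marks probe sets chosen under relaxed design rules. The other Notch1 probe set read between -740 and -423 on the 8 arrays, where more signal was subtracted than was seen, and could not be tested.

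**Figure D1:**
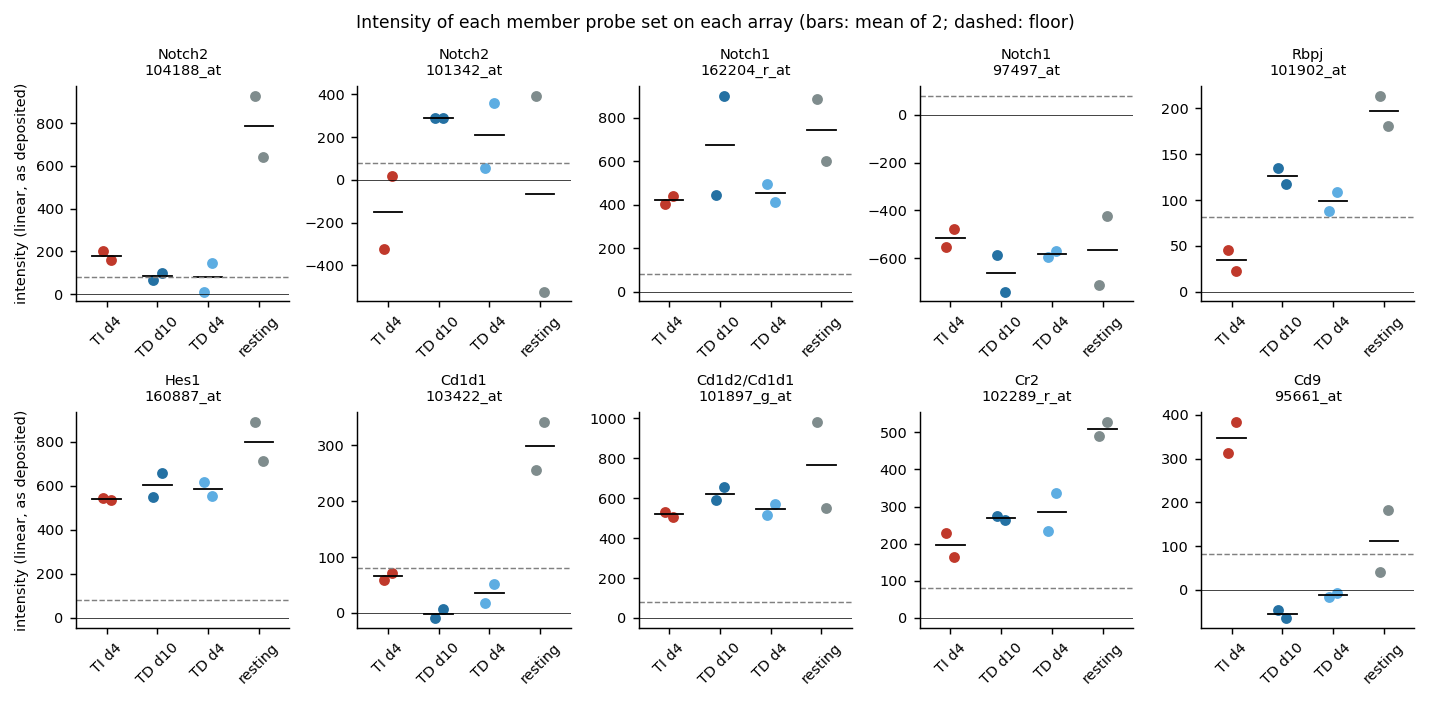
Intensity as deposited (vertical axis, linear scale, own range in each panel) of the 10 probe sets that name a member gene, by group from TI day 4 on the left to resting on the right; points are arrays, bars the mean of 2 arrays, the dashed line the floor of 81. The brighter Notch2 probe set, that of Cd1d1 alone and Cr2 read highest on both resting arrays, while Cd9 reads 312 and 384 on the TI arrays and below 0 on all TD arrays.

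Rbpj, the factor through which all Notch receptors act on DNA, was lower in TI day 4 and TD day 4 than in resting, with its lowest readings in TI day 4. It read 46 and 23 in TI day 4, 135 and 118 in TD day 10, and 88 and 109 in TD day 4, against 214 and 181 in resting. The groups did not overlap, and their order from high to low was resting, TD day 10, TD day 4 and TI day 4. The fall against resting was at least 2.43-fold in TI day 4 (log2 difference -1.28 ± 0.19, SE, limma adjusted p = 0.011) and 2.01-fold in TD day 4 (-1.01 ± 0.19, limma adjusted p = 0.024). In TD day 10 the difference was -0.64 ± 0.19 (SE) and did not pass (limma adjusted p = 0.089). Both TI arrays lay under the floor, so the distance of TI day 4 from the TD groups is a bound (log2 difference at most -0.46 ± 0.16, SE, from the mean of both TD groups, limma adjusted p = 0.21), and with the floor at the 40th percentile it was -1.45 (limma adjusted p = 0.025). The limma adjusted p of the fall in TI day 4 was 0.061 without TI day 4 replicate 1 and 0.067 without replicate 2. That of TD day 4 was 0.076 without resting replicate 1, 0.13 and 0.067 without TD day 4 replicate 1 or 2, and 0.052 without either TI array. With the floor at the 60th percentile both log2 differences were -0.46, and neither passed (limma adjusted p = 0.082 and 0.081). The mouse genome also holds Rbpj pseudogenes, and how far this probe set reads them is not known.

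Hes1, a repressor that Notch signals induce in many tissues, differed little. It read 544 and 534 in TI day 4, 549 and 658 in TD day 10, and 619 and 552 in TD day 4, against 890 and 711 in resting. All 6 germinal centre arrays read below both resting arrays. The 2 TD groups overlapped, and the TI arrays lay just below them. The log2 difference from resting was -0.56 ± 0.19 in TI day 4 (SE, limma adjusted p = 0.14), -0.40 ± 0.19 in TD day 10 (limma adjusted p = 0.27) and -0.44 ± 0.19 in TD day 4 (limma adjusted p = 0.24), and none passed.

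Among the surface markers, Cd1d1 encodes CD1d, which presents lipids to NKT cells and is abundant on marginal zone B cells. It read 59 and 72 in TI day 4, -9 and 7 in TD day 10, and 18 and 52 in TD day 4, against 255 and 342 in resting. All germinal centre arrays lay under the floor, so they have no order among themselves and the fall was at least 3.65-fold in each group (log2 difference at most -1.87 ± 0.18, SE, limma adjusted p = 0.0031 for TI day 4, 0.0034 for TD day 10 and 0.0033 for TD day 4). This probe set passed the filter only through its resting values, and without either resting array it was not tested. The probe set shared with Cd1d2, which stayed out of all counts, read 532 and 508 in TI day 4, 589 and 656 in TD day 10, and 518 and 569 in TD day 4, against 982 and 553 in resting. There 1 resting array lay within the range of the germinal centre arrays, and no difference passed (limma adjusted p = 0.37 for TI day 4, 0.66 for TD day 10 and 0.45 for TD day 4). The probe set of Cd1d2 alone did not read above the floor on any array.

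Cr2 encodes, by alternative splicing in the mouse, both complement receptors CD21 and CD35, which lower the threshold of B cell activation when antigen carries complement. It read 230 and 163 in TI day 4, 275 and 264 in TD day 10, and 235 and 336 in TD day 4, against 491 and 528 in resting. Both resting arrays stood above all others, and the TI arrays read lowest, 1 of them within 5 units of a TD day 4 array. The fall was 2.63-fold in TI day 4 (log2 difference -1.40 ± 0.25, SE, limma adjusted p = 0.021). The log2 differences of -0.92 ± 0.25 in TD day 10 and -0.86 ± 0.25 in TD day 4 (SE) did not pass (limma adjusted p = 0.072 and 0.095), and the difference of TI day 4 from the mean of both TD groups, -0.51 ± 0.22 (SE), did not pass either (limma adjusted p = 0.29). The limma adjusted p of the fall in TI day 4 was 0.066 and 0.071 without resting replicate 1 or 2, and 0.10 without TI day 4 replicate 2. Follicular dendritic cells also carry CD21. Of 6 of their markers on the array Cxcl13 was under the floor on all arrays. The adhesion gene Vcam1 read 207 and 44 in TI day 4, 27 and -25 in TD day 10, and -37 and 20 in TD day 4, against 341 and 421 in resting, and was called lower than in resting in both TD groups (limma adjusted p = 0.023 for TD day 10 and 0.026 for TD day 4) but not in TI day 4 (0.078). Without its resting values this Vcam1 probe set would not have passed the filter, which favoured these falls in advance. The other Vcam1 probe set tested read at most 89 and did not pass (log2 difference 0.05 in TD day 10 and -0.02 in TD day 4, limma adjusted p = 0.88 and 0.98). The list summed to between 1013 and 1054 in TI day 4, 1219 and 1238 in TD day 10, 1089 and 1128 in TD day 4, and 1435 and 1558 in resting. Its part in the Cr2 values was not tested. In pooled RNA fewer cells with a transcript and less of it per cell cannot be told apart, for Cr2 as for every other gene.

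Cd9 encodes a tetraspanin of the cell surface that marks marginal zone and B1 cells and also plasma cells. It went the other way from the rest. It read 312 and 384 in TI day 4, -45 and -64 in TD day 10, and -16 and -7 in TD day 4, against 40 and 183 in resting. Both TI arrays were above all others, the resting arrays lay on either side of the floor, and all 4 TD arrays were below 0. Only the TI arrays and resting replicate 2 read above the floor. Without its TI values this probe set would not have passed the filter, which favoured a difference from the TD groups in advance. The p-values do not allow for that. The rise in TI day 4 was at least 4.27-fold over TD day 10 (log2 difference 2.10 ± 0.37, SE, limma adjusted p = 0.0496) and over the mean of both TD groups (2.10 ± 0.32, limma adjusted p = 0.028). Over TD day 4 the log2 difference was also at least 2.10 ± 0.37 (SE) and did not pass (limma adjusted p = 0.060, and 0.013 without either resting array). Over resting it was at least 1.51 ± 0.37 (SE, limma adjusted p = 0.060), and 2.10 without resting replicate 2 (limma adjusted p = 0.010). The TD groups each gave -0.59 ± 0.37 against resting (SE, limma adjusted p = 0.42 for TD day 10 and 0.45 for TD day 4), a difference that 1 resting array carried. Without the other, resting replicate 1, it was -1.18 (limma adjusted p = 0.030 for TD day 10 and 0.035 for TD day 4).

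The Cd9 calls were narrow. Without either TI array or any 1 of the 4 TD arrays, the limma adjusted p against TD day 10 lay between 0.11 and 0.24, and against the mean of both TD groups between 0.087 and 0.20. RNA quality and markers of other cells also differed between the arrays. The ratio of 3′ to 5′ signal of the Gapdh control was 1.46 ± 0.308 in TI day 4 (SD, n = 2 arrays in each group), 0.866 ± 0.0426 in TD day 10, and 0.968 ± 0.0192 in TD day 4, against 1.23 ± 0.510 in resting. Both TI arrays (1.24 and 1.68) lay above all 4 TD arrays, and resting replicate 2 (1.59) lay between them. With this ratio as a covariate, tried after seeing the data, the log2 difference of Cd9 was 1.21 from TD day 10 and 1.30 from the mean of both TD groups (limma adjusted p = 0.20 and 0.14), and 1.15 from resting (limma adjusted p = 0.027). Plasma cell markers, 6 on the array, summed to between 10289 and 13728 in TI day 4, 2844 and 3584 in TD day 10, 3502 and 4167 in TD day 4, and 2135 and 2255 in resting. Of these Jchain, the joining chain of IgM (7347 and 9356 in TI day 4), Xbp1, a transcription factor of secretory cells (2072 and 2951), and the BCMA gene Tnfrsf17 (563 and 805) were called higher in TI day 4 than in resting and than the mean of both TD groups, while Sdc1 and Prdm1 were not tested. Irf4, also tested, read 125 and 516 in TI day 4 against 292 and 511 in resting, and did not pass (limma adjusted p = 0.74). Macrophage markers, 10 on the array, summed to between 6397 and 7727 in TI day 4, 3016 and 3913 in TD day 10, 3412 and 3505 in TD day 4, and 4585 and 5071 in resting, where Adgre1 was under the floor on all arrays. Of these Apoe was called higher in TI day 4 than in resting, at 4213 and 3371 in TI day 4, 371 and 850 in TD day 10, and 1305 and 1140 in TD day 4, against 434 and 775 in resting. It was the only marker of the list called higher there, and the largest part of both TI sums. Without Apoe the sums would be highest in resting. The complement genes C1qa and C1qc were called lower in TI day 4 than in resting (limma adjusted p = 0.0028 and 0.0071). C1qc passed the filter only through its resting values, so it had to differ, and C1qa would not have passed without its resting values either. C1qb, summed at its brightest probe set (871 and 1066 in TI day 4 against 776 and 700 in resting), did not pass there. Its other probe set read 61 and 24 in TI day 4 against 320 and 295 in resting. That one was also tested only through its resting values. The part of the plasma cell and macrophage markers in the Cd9 values was not tested. Platelets carry CD9 too, and 2 of their 3 markers on the array, Pf4 and Gp1bb, were under the floor on all arrays. The third, Gp9, read -101 and -11 in TI day 4, 127 and 42 in TD day 10, and 31 and -147 in TD day 4. It read 99 and 168 in resting, and did not pass.

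**Figure D2:**
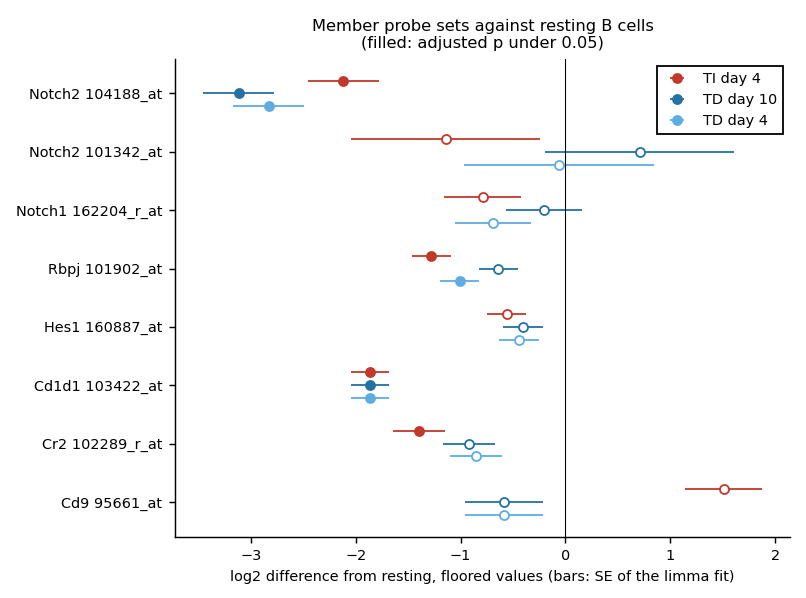
Log2 difference from resting (horizontal axis, floored values, bars: SE of the limma fit) of the 8 member probe sets tested, for TI day 4, TD day 10 and TD day 4; filled points passed. All filled points lie left of 0, and Cd9 in TI day 4, at 1.51, is open and lies to the right.

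Counted by comparison, 4 of the 8 probe sets tested were lower in TI day 4 than in resting (Notch2, Rbpj, Cd1d1 and Cr2), where 3.98% of all probe sets were called lower. In TD day 10 it was 2 (Notch2 and Cd1d1), where 4.44% of all were called lower, and in TD day 4 it was 3 (Notch2, Cd1d1 and Rbpj), where 3.58% were. Cd1d1 is among these counts in all 3 comparisons, although it was tested only because it was high in resting and so had to differ. No member was called higher than in resting in limma, where 5.42% of all were called higher for TI day 4, 6.45% for TD day 10 and 5.83% for TD day 4. These 3 comparisons share the resting arrays. With an array left out, a count takes calls in both directions, and Cd1d1 was not tested without either resting array. The members behind such a count, and their direction, can therefore differ from those named. With 1 array left out the counts ran from 1 to 4 in TI day 4, where the lowest came without resting replicate 1 or TI day 4 replicate 2, from 1 to 2 in TD day 10, where the lowest came without resting replicate 2, and from 2 to 3 in TD day 4. Between the germinal centre groups Cd9 was the 1 probe set of 8 called higher in TI day 4 than in TD day 10 (1.20% of all were called higher, and 1.20% lower) and than the mean of both TD groups (1.74% higher, 1.89% lower). Without its TI values Cd9 would not have passed the filter. Against TD day 4 the count of members was 0 in either direction (0.731% of all were called higher and 0.717% lower), with 1 at an unadjusted p under 0.05, and without either resting array it was 1, Cd9. Without either TI array or any 1 TD array, the count against TD day 10 and against the mean of both TD groups was 0 in limma. Between TD day 10 and TD day 4 it was 0 in limma, with 0 at an unadjusted p under 0.05, and 0% of all were called.

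Beyond the 7 genes, the rest of the Notch pathway mostly did not pass. Of 61 other pathway genes listed, 39 were on the array and 29 were tested. Against resting, 2 rose and 2 fell in TI day 4, 0 rose and 2 fell in TD day 10, and 0 rose and 3 fell in TD day 4. Of all probe sets tested, 5.42% were called higher and 3.98% lower in TI day 4. The shares were 6.45% and 4.44% in TD day 10, and 5.83% and 3.58% in TD day 4. The median log2 difference of the 29 was -0.01 for TI day 4, -0.17 for TD day 10 and -0.32 for TD day 4, beside -0.02, 0.04 and -0.02 over all probe sets tested. The ligand genes Dll1 and Jag2 and the receptor Notch3 read under the floor on all 8 arrays. The receptor Notch4 did so on all 6 germinal centre arrays and read 109 and 94 in resting.

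Within this list the gamma-secretase gene Psen2 parted TI from TD. It read 218 and 216 in TI day 4, -49 and 82 in TD day 10, and 84 and 108 in TD day 4, against 199 and 194 in resting. The TI and resting arrays lay within 25 units of each other, and all 4 TD arrays lay below them. Psen2 was called higher in TI day 4 than in TD day 10 and in TD day 4 (limma adjusted p = 0.017 and 0.035). Of 12 alternative settings other than left-out arrays, 5 lost the first call and 8 the second. Psen2 was at least 2.46-fold higher in TI day 4 than in the mean of both TD groups (log2 difference 1.30 ± 0.15, SE, limma adjusted p = 0.013), and against resting it fell at least 2.41-fold in TD day 10 and 2.06-fold in TD day 4 (limma adjusted p = 0.0082 and 0.018). Without TD day 10 replicate 1 or 2 that of TD day 10 was 0.057 and 0.054, and that of TD day 4 was 0.054 without either resting array and 0.095 without TD day 4 replicate 1. The limma adjusted p between TI day 4 and the mean of both TD groups was 0.085 and 0.12 without TI day 4 replicate 1 or 2, 0.051 without TD day 10 replicate 2, and 0.14 with the Gapdh ratio as a covariate. The other genes of Notch cleavage, Adam10, Adam17, Psenen, Aph1a and Furin, did not pass in any comparison, nor did the fringe genes Lfng, Mfng and Rfng, whose enzymes put sugars on Notch.

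Dtx1, a Notch target that encodes a ubiquitin ligase and is high in marginal zone B cells, read 649 and 556 in TI day 4, 630 and 937 in TD day 10, and 449 and 797 in TD day 4, against 1711 and 1999 in resting. Both resting arrays stood above all others. It fell 3.08-fold in TI day 4 and 3.09-fold in TD day 4 (limma adjusted p = 0.032 and 0.033), and in TD day 10 the log2 difference of -1.27 ± 0.33 (SE) did not pass (limma adjusted p = 0.064). Without either resting array or either TI array the limma adjusted p in TI day 4 lay between 0.084 and 0.15, and that in TD day 4 was 0.13 without TD day 4 replicate 1, 0.079 and 0.11 without resting replicate 1 or 2, and 0.064 without either TI array. Among the corepressors, Tle3, of the Groucho family, read -4 and 102 in TI day 4, 30 and 173 in TD day 10, and 63 and 49 in TD day 4, against 321 and 386 in resting, and fell at least 3.87-fold in TI day 4, at least 2.97-fold in TD day 10 and at least 4.35-fold in TD day 4 (limma adjusted p = 0.024, 0.044 and 0.019). The call in TI day 4 was lost without any 1 resting, TI or TD day 4 array (limma adjusted p = 0.057 to 0.12), that in TD day 10 without any 1 array except TD day 10 replicate 2 (0.074 to 0.15), and that in TD day 4 without any 1 resting or TD day 4 array (0.054 to 0.10). The histone deacetylase gene Hdac1 rose 2.32-fold in TI day 4 (limma adjusted p = 0.047, between 0.060 and 0.18 without any 1 array other than resting replicate 2). It read 348 and 224 in TI day 4, 255 and 229 in TD day 10, and 232 and 230 in TD day 4, against 100 and 145 in resting.

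Sel1l, first named for an effect on Notch signals in the worm and better known for the degradation of misfolded proteins of the endoplasmic reticulum, read 326 and 308 in TI day 4, 30 and -92 in TD day 10, and 55 and 75 in TD day 4, against -54 and 41 in resting. It was above the floor on the TI arrays and on no other. It was at least 3.91-fold higher in TI day 4 than in resting and than the mean of both TD groups (limma adjusted p = 0.0013 and 0.0024). This probe set passed the filter only through its TI values, so it had to differ there, and without either TI array it was not tested. Its other probe set read 77 and 151 in TI day 4, 62 and 95 in TD day 10, and 110 and 76 in TD day 4, against 76 and 42 in resting, and did not pass (log2 difference 0.45 ± 0.32 from resting in TI day 4, SE, limma adjusted p = 0.49).

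**Figure D3:**
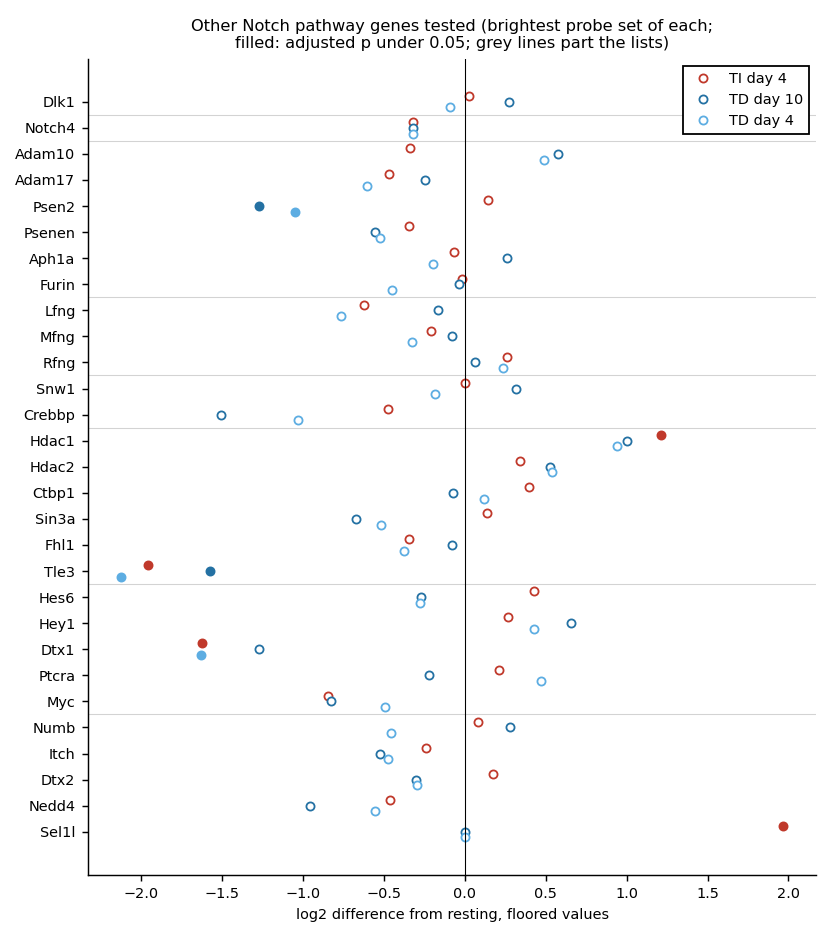
Log2 difference from resting (horizontal axis, floored values) of the 29 other Notch pathway genes tested, at the brightest probe set of each, for TI day 4, TD day 10 and TD day 4; filled points passed and grey lines part the lists. Sel1l and Hdac1 are filled to the right in TI day 4, Tle3 is filled to the left in all 3 groups, Dtx1 in TI day 4 and TD day 4, and Psen2 in the 2 TD groups.

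Other genes of marginal zone B cells did not move as a block. Of 10 listed, 6 were on the array and 5 were tested, and against resting Dtx1 and Plac8 fell in TI day 4 and TD day 4, and Plac8 in TD day 10. Plac8, a small cysteine-rich protein of immune cells, read 1483 and 1696 in TI day 4, 863 and 1119 in TD day 10, and 696 and 1331 in TD day 4, against 6166 and 4444 in resting. It fell 3.30-fold, 5.33-fold and 5.44-fold (limma adjusted p = 0.032, 0.010 and 0.011, in TI day 4, TD day 10 and TD day 4). The limma adjusted p was 0.12 and 0.058 in TI day 4 without resting replicate 1 or 2, 0.14 and 0.12 without TI day 4 replicate 1 or 2, and 0.060 and 0.059 without TD day 10 replicate 1 or 2, and it was 0.071 and 0.051 in TD day 10 without replicate 1 or 2 of that group. S1pr3, the sphingosine phosphate receptor that is high in marginal zone B cells, read 906 and 822 in TI day 4, 705 and 726 in TD day 10, and 766 and 673 in TD day 4, against 899 and 660 in resting, and did not pass. Of 12 genes that marginal zone B cells are known to need, 8 were on the array, 7 were tested, and 0 passed in limma in any comparison. Follicular B cell genes fell as well: of 5 on the array 4 were tested, and 4 fell in TI day 4 and TD day 4 and 3 fell in TD day 10, beside the same shares of all probe sets. Fcer2a, which encodes the low-affinity IgE receptor CD23 of follicular B cells, the chemokine receptor Ccr7 and the exit receptor S1pr1 fell in all 3 groups, Fcer2a by 4.52-fold in TI day 4, by 3.62-fold in TD day 10 and by 3.36-fold in TD day 4 (limma adjusted p = 0.0033, 0.0054 and 0.0074). Without its resting values Ccr7 would not have passed the filter, which favoured its fall in advance in all 3 counts. The other S1pr1 probe set read below 0 on all 8 arrays and was not tested. The chemokine receptor Cxcr5 fell in TI day 4 and TD day 4 (limma adjusted p = 0.025 and 0.046), the first up to 0.13 without any 1 resting, TI or TD day 10 array and the second between 0.053 and 0.17 without any 1 array.

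The partners of CD21 and CD9 are further tetraspanins and membrane proteins of B cells, and 9 of 11 on the array were tested. Cd81, a tetraspanin of the CD21 complex on B cells, read 1245 and 1391 in TI day 4, 634 and 686 in TD day 10, and 837 and 752 in TD day 4, against 979 and 905 in resting. Both TI arrays were highest. It was 1.82-fold higher in TI day 4 than in the mean of both TD groups (log2 difference 0.86 ± 0.14, SE, limma adjusted p = 0.031) and 1.99-fold higher than in TD day 10 (limma adjusted p = 0.036). Without any 1 of the TI or TD arrays the limma adjusted p lay between 0.080 and 0.21. The tetraspanin gene Cd53 fell 2.04-fold and Cd82 1.73-fold in TI day 4 against resting (limma adjusted p = 0.013 and 0.023), Cd82 at 1 of the 2 probe sets tested, since its other tested one gave -0.25 ± 0.19 on the log2 scale (SE, limma adjusted p = 0.51). Both calls were lost without either TI array (limma adjusted p = 0.052 and 0.081 for Cd53, 0.10 and 0.11 for Cd82), and that of Cd82 also without either resting or either TD day 4 array (0.056 to 0.065). Cd37 fell 2.46-fold in TD day 10 and 2.02-fold in TD day 4 (limma adjusted p = 0.0063 and 0.015, the second 0.063 and 0.095 without TD day 4 replicate 1 or 2 and 0.050 without resting replicate 2). Among 5 tested genes of lipid presentation by CD1d the protease gene Ctss fell in all 3 groups, 2.05-fold in TI day 4 (limma adjusted p = 0.015), 2.40-fold in TD day 10 (limma adjusted p = 0.0073) and 2.33-fold in TD day 4 (limma adjusted p = 0.0096). The limma adjusted p for TI day 4 was 0.067 and 0.087 without its replicate 1 or 2, that for TD day 10 was 0.055 without its replicate 1, and that for TD day 4 was 0.074 without its replicate 1. Psap, the precursor of the saposins that hand lipids to CD1d, read 2148 and 2025 in TI day 4, 899 and 1114 in TD day 10, and 1460 and 1337 in TD day 4, against 4057 and 2562 in resting at its brightest probe set. It fell 3.22-fold in TD day 10 and 2.31-fold in TD day 4 (limma adjusted p = 0.011 and 0.037). The first was 0.076 and 0.051 without TD day 10 replicate 1 or 2, and the second lay between 0.064 and 0.17 without any 1 array other than resting replicate 2. The other Psap probe set that was tested did not pass in any comparison. B2m, the light chain of CD1d, read 5454 and 6483 in TI day 4, 5336 and 5638 in TD day 10, and 5623 and 6290 in TD day 4, against 9137 and 6881 in resting, and did not pass.

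The resting arrays had the highest sums of red cell and neutrophil markers. Red cell markers, 6 on the array, summed to between 2333 and 2866 in TI day 4, 867 and 1277 in TD day 10, 713 and 1038 in TD day 4, and 22675 and 25147 in resting. Neutrophil markers, 7 on the array, summed to between 1605 and 2690 in TI day 4, 1756 and 2309 in TD day 10, 1600 and 1679 in TD day 4, and 6282 and 6548 in resting. The globin genes Hba-a1 and Hbb-b2 and the neutrophil gene S100a8 were called lower in all 3 germinal centre groups. The neutrophil gene S100a9 was called lower in TD day 4 (limma adjusted p = 0.029). Elane, Mpo, Ltf and Camp did not pass, and Mpo read lowest in resting (114 and 119). The red cell membrane gene Slc4a1 went another way, with 1700 and 2317 in TI day 4, 252 and 221 in TD day 10, and 363 and 419 in TD day 4, against 724 and 707 in resting, and was called higher in TI day 4 than in resting and than the mean of both TD groups (limma adjusted p = 0.0094 and 0.0026). Their part in the differences of the 7 genes was not tested. Dendritic cell markers, 5 on the array, summed to between 2600 and 3116 in TI day 4, 2227 and 2373 in TD day 10, 1983 and 2041 in TD day 4, and 2473 and 2714 in resting. Of these Cst3 was called lower than in resting in TD day 10 and TD day 4 (limma adjusted p = 0.034 and 0.033). It was called higher in TI day 4 than in TD day 10 and than the mean of both TD groups (limma adjusted p = 0.04995 and 0.027). T cell markers summed to at most 834 on every array, with 4 of 6 under the floor throughout, and both B1 cell markers on the array were under the floor on all arrays.

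**Figure D4:**
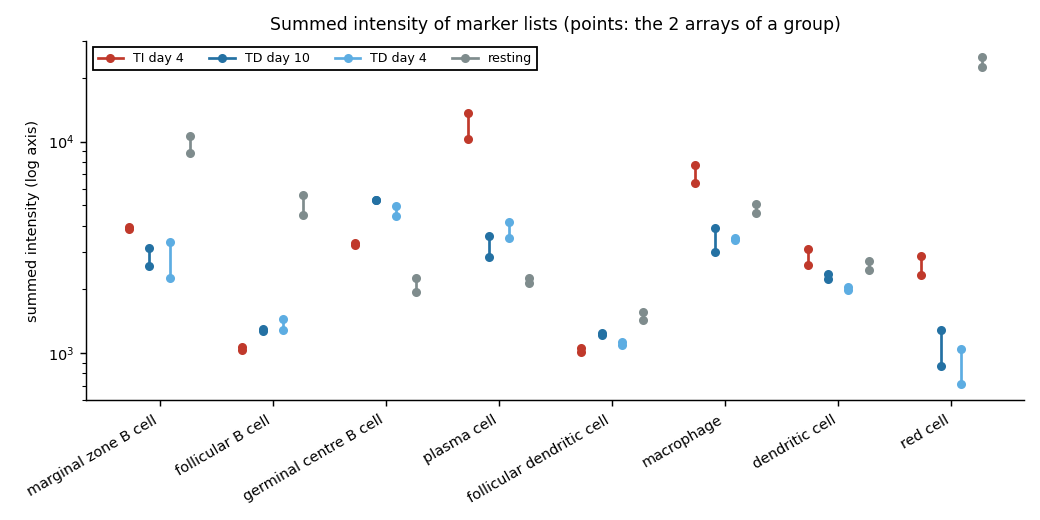
Summed intensity of 8 marker lists (vertical axis, log scale) on the 2 arrays of each group, from TI day 4 on the left to resting on the right within each list. Marginal zone, follicular and red cell sums are highest in resting, plasma cell and macrophage sums in TI day 4, and germinal centre sums in the TD groups. Apoe is the largest part of the macrophage sums in TI day 4, and without it the macrophage sums would be highest in resting. Plac8 is the largest part of the marginal zone sums in resting, and 4 of the 7 genes described are in that list.

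The genes whose pattern was most like a member's were found by the root-mean-square difference of centred log2 values over the 8 arrays, which is a description only. The 5 nearest Notch2 were Tyrobp, an adaptor of myeloid and NK cell receptors (0.24), the surface protein gene Ly6d (0.28), Plac8 (0.28), Arhgef3 (0.33) and Slfn2 (0.34). Tyrobp read 163 and 107 in TI day 4, 80 and 93 in TD day 10, and 35 and 108 in TD day 4, against 600 and 573 in resting, and so shared the step from resting to all germinal centre groups. Nearest Cd9 were Dad1, a subunit of the enzyme that adds sugar chains to proteins (0.23), the vesicle adaptor Gga1 (0.25), the mannosidase Man1b1 (0.28), Sycp1 (0.28) and the homeobox gene Cux1 (0.30). Man1b1 read 382 and 540 in TI day 4, 42 and 58 in TD day 10, and 55 and 57 in TD day 4, against 60 and 126 in resting. Nearest Cr2 were the lipid enzyme genes Scd1 (0.12) and Elovl5 (0.15), then Ncoa4, AW112010 and Rflnb. Nearest Cd1d1 were Hsd17b11 (0.061) and the histone methyltransferase Ezh1 (0.084), then the complement gene C1qb, Gucd1 and Hba-ps3. Nearest Rbpj were the activin receptor Acvr2a (0.16) and Qdpr (0.18), then Usp22, Cd53 and the survival gene Bcl2. Nearest Hes1 were Fam32a (0.031) and the ribosomal protein gene Rpl10a (0.061), then Rpl8, Fbxo3 and Mien1. Nearest Notch1 were Chrng (0.065) and Mapk12 (0.14), then Insrr, Tsn and Actn3. Among the members the closest pair was Rbpj and Cr2 (0.23), and Cd9 lay farthest from the others (1.02 from Hes1 to 1.41 from Notch2).

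**Figure D5:**
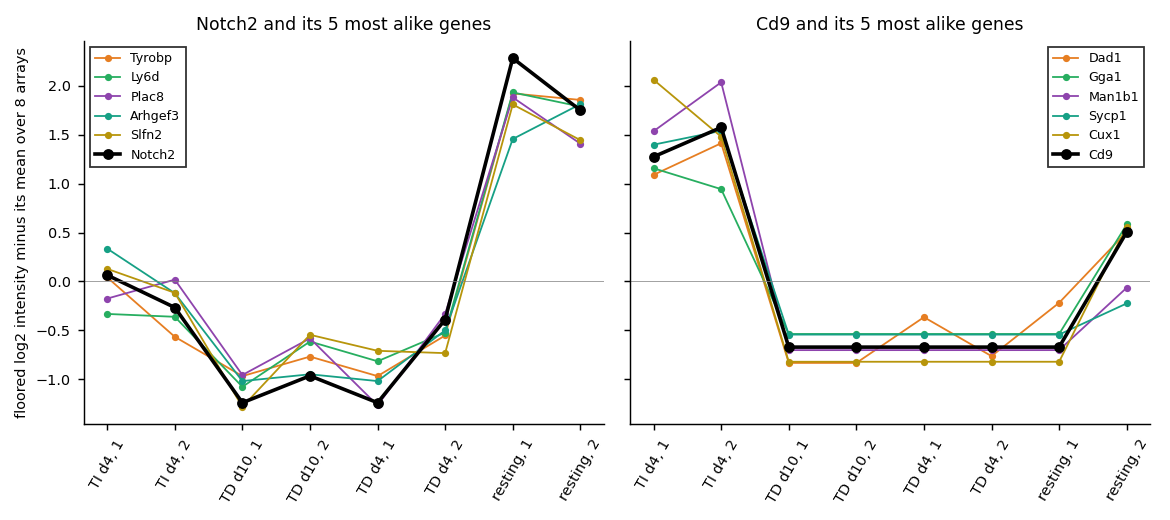
Floored log2 intensity minus its mean over the 8 arrays (vertical axis) of Notch2 (left) and Cd9 (right) with the 5 genes nearest to each, by array from TI day 4 on the left to resting on the right. The Notch2 set is highest on the resting arrays and the Cd9 set on the TI arrays, with resting replicate 2 of Cd9 above replicate 1.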

How the data were processed

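The values are intensities on a linear scale, deposited by the authors as whole numbers. RNA was extracted with RNAzol and biotin-labelled by the Affymetrix standard protocol, per the labels' protocols, and the software and scaling behind the values are unstated. Of all values 30.1% are 0 or below and the mean after dropping 2% at each end is 200.2 on every array, so the arrays were read as scaled with background or mismatch signal subtracted, and were not normalized further. Values were floored at the 50th percentile (81), and log2 was taken. A covariate, other floors (40th and 60th percentile), a pseudocount of 50, normalizations, filters, variance models and left-out arrays were tried as alternatives.

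Of 12488 probe sets, 66 controls were set aside and 7253 had at least 2 arrays above the floor. The probe annotation gives 1 gene for 10855, several for 396 and none for 1237. The test was limma 3.58.1 (R 4.3.3), 1 model of 4 groups with 4 residual and 2.20 prior degrees of freedom, two-sided, Benjamini-Hochberg adjusted over all probe sets tested in each of 7 comparisons. It was tested on simulated data. With 2 arrays a group, the number of arrays limits the precision.

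The genes and lists were chosen with earlier results of these data known. Text values cover every probe set of the 7 genes. Of each list the text names the genes called somewhere (at most 6), at the brightest tested probe set, and counts of calls are given for some lists only. The endothelial and stromal markers were not described above. Among them Pecam1 was called lower in TD day 10 than in resting (limma adjusted p = 0.030). Arrays with the same replicate number had deviations that correlated between -0.217 and 0.121 across groups, so numbers were not taken as pairs.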

Additional observations from a re-analysis of the deposited data

Results flagged for a closer look

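The difference of Cd9 from resting differed between TI day 4 and TD day 10, and between TI day 4 and the mean of both TD groups. The log2 difference of TI day 4 exceeded that of TD day 10 by at least 2.10, and the mean of both TD groups by at least 2.10, each tested in limma as the difference between the groups (adjusted p = 0.0496 and 0.028), with both TI arrays above all 4 TD arrays. Against TD day 4 alone the same difference did not pass (limma adjusted p = 0.060). Both calls were lost without either TI array or any 1 of the 4 TD arrays (limma adjusted p = 0.087 to 0.24), and with the Gapdh ratio as a covariate (log2 differences of 1.21 and 1.30, limma adjusted p = 0.20 and 0.14). Without its TI values Cd9 would not have passed the filter, which favoured these differences in advance. No group has the 4 arrays that a check for single outlying arrays needs.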

How the results depend on the processing

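Over all alternatives, the 11 calls of member probe sets gave 209 values, of which 156 kept direction and call, 53 kept direction and lost the call, and 0 changed direction. The 40 calls of list genes gave 785, of which 571 kept both and 214 lost the call. These totals include fits that left out an array of a group outside the comparison, and hold no value of Cd1d1 without either resting array. With the fit limited to the arrays compared, which leaves few degrees of freedom, the number of members called against resting was 0 in TI day 4 and TD day 4 and 1 in TD day 10, and it was 0 in TI day 4 against TD day 10. Without a filter it was 2 in TI day 4 against resting, and 0 in TI day 4 against TD day 10 and against the mean of both TD groups. With the stricter filter, which drops Cd1d1 and Cd9, it was 1 in TD day 10 against resting and 0 in the 2 comparisons of TI day 4 just named. Scaling to a common median gave 4 in TD day 10 against resting (Rbpj and Cr2 were added) and 0 in TI day 4 against TD day 10, and quantile normalization gave 0 there. In TI day 4 against TD day 4 it was 1 with the floor at the 60th percentile, the pseudocount or array weights. In TI day 4 against the mean of both TD groups it was 2 with the floor at the 40th percentile or the pseudocount. With the Gapdh ratio as a covariate, an alternative chosen after seeing the data, it was 0 in TI day 4 against TD day 10 and against the mean of both TD groups. With 1 array left out the counts ran from 1 to 4 in TI day 4, 1 to 2 in TD day 10 and 2 to 3 in TD day 4 against resting, from 0 to 1 in each comparison of TI day 4 with TD cells, and stayed at 0 in TD day 10 against TD day 4. With the replicate number as a block the count was 0 in TI day 4 against TD day 10, where the Cd9 log2 difference of 2.10 had a limma adjusted p of 0.064. The cause of these changes was not tested unless named. Signal near the floor limits Cd1d1, Rbpj, Cd9 and the weaker Notch2 arrays, where differences are bounds.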
